A study of Mus musculus with 18 samples.

Results

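The comparison described here sets antibody (IgG) against bovine serum albumin (BSA), each electroporated into parental NIH3T3 cells, a mouse embryonic fibroblast line. Its members are the 6 libraries whose source labels name the parental line and either of these proteins, 3 per protein, out of 18 libraries in the series. Each group holds 1 library numbered 10, 1 numbered 11 and 1 numbered 14 in the sample titles. The other libraries are parental cells given PBS and an NIH3T3 line carrying mCherry-mTRIM21 given PBS, BSA or IgG.

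In both groups the cells were electroporated with 7.5 µg of protein in 2 pulses of 20 ms at 1400 V, and RNA was taken 16 h later. The BSA cells therefore share with the IgG cells the electric pulse and the load of foreign protein, and differ in which protein was delivered. No transgene is named for the parental line, so any TRIM21 in these cells comes from the endogenous gene. The labels give a catalogue number for the antibody and not its target. They do not say whether the 3 libraries of a group came from separate cultures. The p-values below therefore rest on the spread between libraries, which may be technical. In fits of all 18 libraries that spread is pooled over the 6 groups of cell line and treatment.

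TRIM21 is a cytosolic E3 ubiquitin ligase that binds the constant (Fc) part of antibodies with high affinity. An antibody that reaches the cytosol bound to a virus or a cellular protein recruits TRIM21, which then builds ubiquitin chains with the E2 enzymes Ube2w, Ube2n and Ube2v2, and the complex is unfolded by the ATPase VCP and degraded by the proteasome. In infected cells the same ligase activity can also start NF-kB and interferon signalling, and the TRIM21 gene is itself interferon-inducible.

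The promoters of 3 genes on which the results below turn are printed first: Trim21, the receptor whose endogenous copy is the only one in this line, Rplp2, a ribosomal stalk protein gene that was lower after IgG, and Atf7, a transcription factor gene that was higher. Each is the 250 bases before the gene's start in RefSeq on GRCm38.p6, 5′ to 3′ on the gene's strand, and that start can differ from the gene bounds given below. Capitals mark matches, on either strand, to the ETS core CCGGAAG or to the SP1 GC box GGGCGG. They are Trim21 at chr7:102565483-102565732 (minus strand), Rplp2 at chr7:141447401-141447650 (plus strand) and Atf7 at chr15:102625465-102625714 (minus strand).
Trim21: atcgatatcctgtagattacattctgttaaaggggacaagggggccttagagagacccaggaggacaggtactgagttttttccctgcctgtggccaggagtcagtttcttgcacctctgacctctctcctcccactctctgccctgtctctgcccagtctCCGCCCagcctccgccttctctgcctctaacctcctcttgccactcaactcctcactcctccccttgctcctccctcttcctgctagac
Rplp2: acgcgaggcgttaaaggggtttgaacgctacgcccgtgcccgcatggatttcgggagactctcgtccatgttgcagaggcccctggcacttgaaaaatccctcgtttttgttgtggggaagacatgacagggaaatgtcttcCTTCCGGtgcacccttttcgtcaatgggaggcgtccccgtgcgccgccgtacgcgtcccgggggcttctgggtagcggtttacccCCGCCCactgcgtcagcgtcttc
Atf7: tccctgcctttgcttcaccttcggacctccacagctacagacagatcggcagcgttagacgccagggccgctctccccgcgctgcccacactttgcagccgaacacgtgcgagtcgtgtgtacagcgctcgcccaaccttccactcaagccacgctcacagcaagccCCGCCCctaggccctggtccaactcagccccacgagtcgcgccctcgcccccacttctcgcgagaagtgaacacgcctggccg
The Trim21 window held 1 GC box, the Atf7 window held 1, and the Rplp2 window held 1 ETS core and 1 GC box. None of the 3 held the interferon response element core, GAAA, any 2 bases and GAAA again. These matches are letters only and show no binding.

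The 3 IgG libraries held 22023923, 19509017 and 20365972 reads assigned to genes, and the BSA libraries 23213821, 21706067 and 26521824. Levels are given as CPM, reads per 1e6 gene reads after TMM scaling, always in the order of numbers 10, 11 and 14. Reads that fell outside genes made up 17.0%, 16.3% and 17.3% after IgG and 13.1%, 15.9% and 15.3% after BSA, and these shares did not overlap. The shares leave out reads with several alignments. The label of a fibroblast line was borne out by the markers: the summed level of 11 fibroblast genes was 34800 to 40800 CPM after IgG and 31100 to 41400 after BSA, with none at 0. Summed leukocyte markers, which could reveal cells with Fc receptors, reached 13.3 to 15.8 CPM after IgG and 15.3 to 16.3 after BSA over 11 genes, with Emr1 and Cd3e at 0 in both groups. Epithelial, endothelial, adipocyte and muscle lists each summed to at most 1.9 CPM, and 8 neural genes to 14.8 to 16.0 and 15.9 to 18.1 CPM.

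Trim21, the cytosolic receptor of the delivered antibody, did not differ detectably between IgG and BSA. Trim21 (chromosome 7, 102557921 to 102565486, minus strand, GRCm38) was 6.64, 8.78 and 8.82 CPM after IgG and 8.41, 6.54 and 8.39 CPM after BSA. The lowest IgG and the lowest BSA value were nearly equal, and the groups overlapped throughout. The log2 fold change of IgG over BSA was 0.051 with a 95% interval of -0.25 to 0.36 (SE 0.15, edgeR quasi-likelihood test over 18 libraries, Benjamini-Hochberg adjusted p = 0.948). That interval leaves out a 1.5-fold change in either direction. After PBS the gene was 6.72, 8.102 and 9.73 CPM, in the same range.

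The other genes of the degradation route did not pass the test either. Of 15 genes listed for it, all 15 passed the filter on low counts, 9 were higher and 6 lower after IgG, with a median log2 fold change of 0.0040 beside -0.0021 for all 12140 genes tested. By edgeR, 0 passed the adjusted threshold of 0.05, the same share as over all genes (0% called). At an unadjusted p under 0.05 there were 0, beside 5.87% of all genes. Ube2n, which extends lysine-63-type ubiquitin chains, was 77.5, 78.5 and 66.9 CPM after IgG and 75.5, 83.5 and 70.9 CPM after BSA. Ube2w, which places the first ubiquitin, was 62.4, 67.8 and 57.8 CPM after IgG and 62.98, 62.4 and 62.02 CPM after BSA. Both E2 genes overlapped between the groups.

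Vcp, the unfolding ATPase, was 248, 277 and 267 CPM after IgG and 263, 275 and 249.9 CPM after BSA, a log2 fold change of 0.0070 with an interval of -0.24 to 0.25. Among its cofactors, Ufd1l was 54.6, 54.97 and 52.98 CPM after IgG and 57.3, 60.6 and 57.7 CPM after BSA. All 3 IgG values lay below all 3 BSA values, as for 7.18% of all genes tested. The difference was -0.11 (SE 0.089, edgeR adjusted p = 0.767). Its partner Nploc4 differed by 0.11 with overlapping values. The proteasome-bound deubiquitinases Psmd14, Usp14 and Uchl5 differed by -0.036, 0.050 and -0.21, all with overlap.

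**Figure D1:**
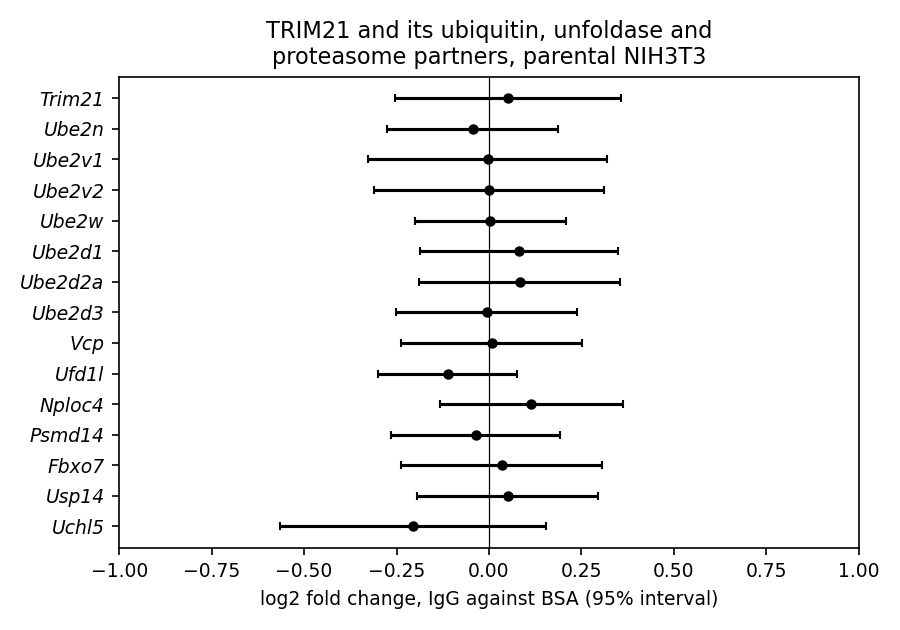
Log2 fold change of IgG over BSA with its 95% interval (horizontal axis) for Trim21 and 14 genes of its degradation route (vertical axis). Values are from the fit of 18 libraries, for parental NIH3T3 cells, with 1 point per gene. Each interval includes 0, and that of Trim21 runs from -0.25 to 0.36. By CPM, which is not drawn, 13 of the 15 genes overlap between IgG and BSA. Over all genes tested, 9.71% lie wholly higher and 7.18% wholly lower after IgG.

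Few receptors for antibody were detected. Of 11 listed Fc receptor and carrier genes, 4 had enough counts to be tested. Fcgrt, the neonatal Fc receptor that recycles IgG, was 51.9, 53.5 and 70.8 CPM after IgG and 75.6, 48.2 and 86.2 CPM after BSA, with full overlap and a log2 fold change of -0.25. The endocytic receptor Lrp2 was 0.929, 1.07 and 0.542 CPM after IgG and 0.479, 0.414 and 0.677 CPM after BSA, a difference of 0.67 (edgeR adjusted p = 0.741). Fcgr4 was at 1.76 ± 0.240 and 1.62 ± 0.174 CPM (SD, n = 3 each), and Cubn differed by 0.24. Fcgr1, Fcgr2b, Fcgr3 and Fcer1g did not pass the filter.

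Over the whole transcriptome, 0 of 12140 genes (0%) differed between IgG and BSA at an adjusted p under 0.05 in the fit of all 18 libraries (edgeR quasi-likelihood test, Benjamini-Hochberg), and the smallest adjusted p was 0.741. At an unadjusted p under 0.05 there were 713 genes (5.87%), 364 higher (3.00%) and 349 lower (2.87%). The DESeq2 Wald test and limma-voom also gave 0 after adjustment, with 745 and 691 unadjusted. Without the BSA library numbered 10 the unadjusted count was 161, and without the IgG library numbered 11 it was 382.

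The libraries were precise enough to bound most genes. The 95% interval of the log2 fold change had a median half-width of 0.30, a factor of 1.23, and it lay wholly within a 2-fold change in either direction for 11156 of 12130 genes (92.0%). It lay within 1.5-fold for 8578 (70.7%), and among genes with at least 10 CPM for 85.3%. Of 26 genes with a fitted difference over 2-fold, 22 had a mean under 1 CPM. Those are levels at which the interval had a median half-width of 0.85 on the log2 scale.

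The genes with the smallest p among those that did not overlap between groups and moved one way in the 3 numbered pairs showed differences of 0.34 to 0.95 on the log2 scale upward and -0.43 to -0.78 downward. Over all genes, 1179 (9.71%) had all IgG values above all BSA values and 872 (7.18%) had them below. Higher in 3 of 3 pairs were 2776 genes (22.9%), and lower in 3 of 3 were 2901 (23.9%). None of the 16 genes named next passed the adjusted threshold in the fit of 18 libraries, where each had an edgeR adjusted p of 0.741.

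Among the higher genes, Nhlrc3, which encodes an NHL-repeat protein, was 6.505, 6.75 and 6.801 CPM after IgG and 3.62, 4.93 and 4.102 CPM after BSA. The IgG values lay close together, above every BSA value. The log2 fold change was 0.67 (SE 0.17, edgeR unadjusted p = 0.000884). After PBS it was 7.08, 4.58 and 6.85 CPM, so 2 of the 3 PBS libraries lay with the IgG libraries.

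Atf7 (chromosome 15, 102525946 to 102625464, minus strand), a transcription factor of the CREB/ATF family, was 28.2, 21.4 and 27.2 CPM after IgG and 11.5, 13.5 and 18.6 CPM after BSA, a difference of 0.81 (SE 0.22, edgeR unadjusted p = 0.00192). The BSA library numbered 14 came nearest to the IgG range without reaching it. Srrm2, a spliceosome scaffold protein, was 955, 844 and 859.6 CPM after IgG and 599.7, 731 and 725 CPM after BSA, a difference of 0.37. Tanc2, a synaptic scaffold, was 195, 177 and 174 CPM after IgG and 124, 146 and 149 CPM after BSA. Zfp609, a zinc finger gene, was 61.2, 57.8 and 60.7 CPM after IgG and 41.1, 48.4 and 52.1 CPM after BSA. In all of these the lowest BSA value was that of number 10.

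Ncoa4, the receptor for autophagy of ferritin, was 34.7, 33.9 and 26.1 CPM after IgG and 21.8, 24.2 and 25.9 CPM after BSA, with the IgG library numbered 14 only just above the highest BSA value. The other higher genes were small nucleolar RNAs at few counts. Snora81 was 2.79, 2.89 and 2.07 CPM after IgG and 1.09, 1.52 and 1.39 CPM after BSA and Snora52 1.63, 1.93 and 1.48 CPM after IgG and 1.13, 1.15 and 0.602 CPM after BSA. Snora52 (chromosome 7, 141448803 to 141448939) lies inside Rplp2 (141447370 to 141451585, same strand), so its reads and those of its host may not be separable. The host was lower after IgG.

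The lower genes were mostly small mitochondrial proteins. Coa6 (chromosome 8, 126422515 to 126425433, plus strand), which helps load copper into cytochrome c oxidase, had the smallest p of all 12140 genes. It was 6.13, 5.28 and 6.55 CPM after IgG and 9.76, 8.98 and 9.48 CPM after BSA. Every IgG value lay well below every BSA value, with a log2 fold change of -0.65 (SE 0.14, edgeR unadjusted p = 0.000235). The PBS libraries lay between, at 7.57, 7.899 and 6.997 CPM.

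Cox17, the copper chaperone of the same enzyme, was 9.25, 6.14 and 8.08 CPM after IgG and 16.2, 11.8 and 12.3 CPM after BSA, a difference of -0.78 (SE 0.20). Cox14, another of its assembly factors, was 25.9, 20.1 and 25.3 CPM after IgG and 40.97, 30.6 and 34.2 CPM after BSA, a difference of -0.57. The complex I subunit Ndufc2 was 36.4, 29.1 and 32.6 CPM after IgG and 48.2, 42.5 and 45.5 CPM after BSA. In these 3 genes the lowest IgG library was number 11 and the highest BSA library number 10.

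Ndufc1, another complex I subunit, was 20.7, 18.9 and 16.9 CPM after IgG and 29.9, 24.2 and 24.6 CPM after BSA. Tmem256, a small membrane protein, was 37.3, 33.9 and 31.5 CPM after IgG and 55.01, 42.7 and 41.2 CPM after BSA. The small open reading frame 2700094K13Rik, which encodes the selenoprotein SELENOH, was 12.7, 11.7 and 12.8 CPM after IgG and 21.2, 18.97 and 19.1 CPM after BSA. Snord96a, a small nucleolar RNA, was at 2.65, 2.59 and 2.42 against 4.27, 4.14 and 3.42 CPM. None of these 4 overlapped between groups, and their log2 differences ran from -0.43 to -0.67.

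**Figure D2:**
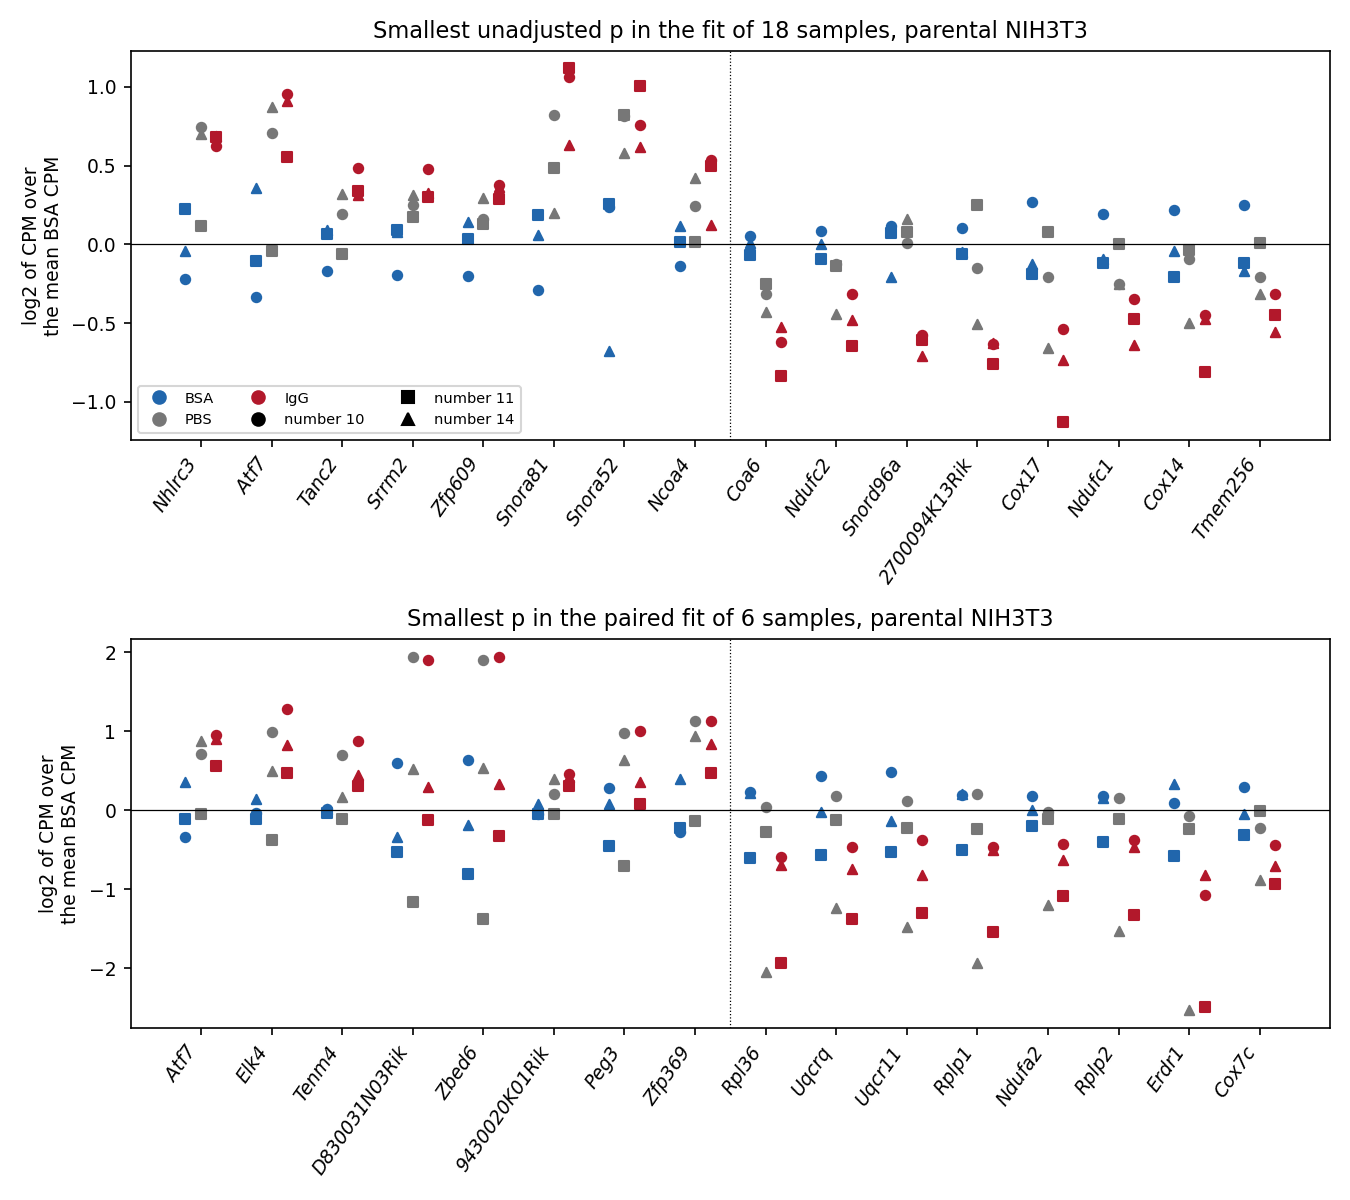
Level of each gene in each library of the parental line as the log2 ratio to the mean of its 3 BSA libraries (vertical axis, 0 is the BSA mean), with colour for the treatment and shape for the library number. The upper panel holds the 16 genes named by smallest unadjusted p in the fit of 18 libraries and the lower panel the 16 with the smallest p in the paired fit of 6 libraries, where the PBS libraries (grey) spread from the IgG side to the BSA side.

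Libraries with the same number deviated together. Across genes, the deviations of the IgG and BSA libraries from their group means correlated at 0.232 for number 10, 0.288 for number 11 and 0.397 for number 14, and at -0.0069 or below for libraries with different numbers. Genes are not independent replicates, so these values are a description. Deviations from a group mean cancel out within the group, so the low values for different numbers partly follow from the positive same-number values. Each same-number value exceeded 0.1, so the numbers were taken to pair the libraries, and the difference was then also fitted within pairs. The pairing was thus read from the same values that the paired fit tests, and the labels do not state it.

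In that paired fit of the 6 libraries alone, 862 of 11872 genes (7.26%) differed at an adjusted p under 0.05 (edgeR quasi-likelihood test, Benjamini-Hochberg), 314 higher (2.64%) and 548 lower (4.62%). The changes were small: the higher genes had a median log2 fold change of 0.33 (0.23 to 0.95) and the lower genes a median of -0.37 (-1.32 to -0.24), and 4 lower and 0 higher genes reached 2-fold. Without the pairing the same 6 libraries gave 0 called genes. The paired fit rests on 2 residual degrees of freedom. Without number 14 it gave 74 genes, without number 10 it gave 211 and without number 11 it gave 1414, and a paired fit with the 3 parental PBS libraries added gave 0 (923 at an unadjusted p under 0.05).

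The range of the 3 parental PBS values in CPM was larger than the difference between the IgG and BSA means for 737 of the 862 genes (85.5%). The share was somewhat higher, 10919 of 12140 (89.9%), over all genes tested, so this spread was not particular to the called genes. Of the 16 paired-fit genes described next, all 16 had PBS libraries on both sides of the midpoint between the IgG and BSA means. These 16 were chosen by smallest p after their values were seen.

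Among genes that fell in the paired fit, genes for ribosomal and respiratory chain proteins had the smallest p. Rpl36, a protein of the large subunit, was 125, 49.7 and 117 CPM after IgG and 223, 124 and 221 CPM after BSA. Each IgG library lay well below its BSA partner, but the IgG values of numbers 10 and 14 sat beside the BSA value of number 11, so the groups overlapped. The paired log2 fold change was -1.01 (SE 0.087, edgeR paired fit, adjusted p = 0.000179), against -0.96 with an SE of 0.49 in the fit of 18 libraries (edgeR adjusted p = 0.741). After PBS it was 194, 156 and 45.96 CPM, a wider range than either protein gave.

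Rplp1 and Rplp2 form the acidic stalk of the large subunit, where translation factors dock. Rplp1 was 813, 388 and 793 CPM after IgG and 1287, 794 and 1292 CPM after BSA. Rplp2 was 415, 214 and 390.3 CPM after IgG and 608, 406 and 596 CPM after BSA. Number 11 was the lowest library of both groups for both genes. The paired log2 fold changes were -0.80 (SE 0.081) and -0.69 (SE 0.079), with edgeR adjusted p of 0.000423 and 0.000969. After PBS, Rplp1 was 1296, 952 and 295 CPM and Rplp2 598, 499 and 187, so PBS number 14 lay under every IgG library.

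Of 50 cytosolic ribosomal protein genes, 49 were lower and 1 higher after IgG in the fit of 18 libraries, with a median of -0.25 beside 6124 of 12140 lower and -0.0021 for all genes. In the paired fit 22 of the 50 fell and 0 rose, beside 4.62% and 2.64% of all genes. Rps29, Rps19 and Rpl37 fell by 0.59, 0.47 and 0.41 on the log2 scale. Rpl7, the 1 higher member, was 2302, 2186 and 1718 CPM after IgG and 2236, 2136 and 1704 CPM after BSA, which did not pass. The lowest value, Rpl30 at -1.18, came from a mean of 0.355 against 0.821 CPM, and many of these genes have near-identical processed copies that can take their reads.

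Relative to each gene's mean over the BSA libraries, the median ribosomal protein gene stood at -0.068, -0.38 and -0.32 on the log2 scale after IgG, at 0.21, -0.059 and -0.16 after BSA and at -0.038, -0.072 and -0.45 after PBS. IgG number 10 was thus higher than BSA number 14. PBS number 14 was the lowest of the 9 libraries, and BSA number 10 the highest.

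The nuclear-encoded respiratory chain showed the same picture. Of 50 listed subunits 49 were lower and 1 higher (median -0.23), and 19 fell and 0 rose in the paired fit, beside 4.62% and 2.64% of all genes. Uqcrq, a small subunit of complex III, was 47.7, 25.5 and 39.5 CPM after IgG and 88.8, 44.6 and 64.8 CPM after BSA. Its paired log2 fold change was -0.80 (SE 0.073, edgeR adjusted p = 0.000179), and IgG number 10 lay above BSA number 11. After PBS it was 74.6, 60.8 and 28.03 CPM.

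Uqcr11, another subunit of complex III, was 60.6, 32.03 and 44.4 CPM after IgG and 110.2, 54.3 and 71.5 CPM after BSA, and it fell by 0.77 in the paired fit (SE 0.072). Ndufa2 of complex I was 40.4, 25.6 and 35.3 CPM after IgG and 61.5, 47.2 and 54.3 CPM after BSA, and Cox7c of complex IV 28.7, 20.4 and 23.9 CPM after IgG and 47.6, 31.4 and 37.8 CPM after BSA. Those last 2 did not overlap between groups, and fell by 0.70 and 0.67. Core subunits were mixed. Sdhb of complex II and Ndufs7 and Ndufs8 of complex I, which are some of the iron-sulfur proteins of these complexes, fell by 0.30, 0.59 and 0.36 (edgeR paired fit, adjusted p = 0.0260, 0.00442 and 0.0119). Sdha, the flavoprotein of complex II and the 1 higher member, was 231, 251 and 220.5 CPM after IgG and 222, 223 and 206 CPM after BSA, and Ndufs1 of complex I differed by -0.0026, neither passing.

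Per library, the respiratory list stood at -0.084, -0.30 and -0.32 after IgG, 0.19, -0.051 and -0.14 after BSA and -0.011, -0.083 and -0.29 after PBS, with BSA number 10 again the highest and IgG number 14 the lowest. Erdr1, a small gene that was among the 8 lower leaders and belongs to neither list, was 4.37, 1.62 and 5.17 CPM after IgG and 9.76, 6.12 and 11.6 CPM after BSA. It fell by 1.32 in the paired fit (SE 0.15, edgeR adjusted p = 0.000969), and the IgG library numbered 11 was far below the other 5.

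Among genes that rose in the paired fit, several with the smallest p encode DNA-binding proteins. Atf7 rose by 0.83 (SE 0.12, edgeR adjusted p = 0.00375). Elk4, an ETS-family factor that acts with serum response factor, was 21.8, 12.5 and 15.9 CPM after IgG and 8.76, 8.34 and 9.94 CPM after BSA, without overlap, and rose by 0.88 (SE 0.13, edgeR adjusted p = 0.00388). After PBS it was 17.9, 6.93 and 12.8 CPM, which reaches from below the BSA range into the IgG range. Zfp369, a zinc finger gene, was 13.8, 8.78 and 11.3 CPM after IgG and 5.23, 5.43 and 8.32 CPM after BSA. Peg3, an imprinted zinc finger gene, was 43.3, 22.8 and 27.8 CPM after IgG and 26.2, 15.8 and 22.9 CPM after BSA, and rose by 0.52.

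Zbed6, a transposase-derived repressor, was 52.5, 10.9 and 17.2 CPM after IgG and 21.2, 7.83 and 11.97 CPM after BSA. Number 10 was the highest and number 11 the lowest in both groups and also after PBS (50.8, 5.27 and 19.8 CPM). The gene rose by 0.84 within pairs (SE 0.14) but had an SE of 0.80 without pairing. Zbed6 lies within an intron of Zc3h11a, so part of its reads can belong to that gene. D830031N03Rik, whose symbol had no match in the annotation, showed the same order of libraries, at 50.5, 12.4 and 16.5 CPM after IgG and 20.4, 9.39 and 10.7 CPM after BSA.

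Tenm4, a large cell adhesion protein, was 148, 99.8 and 109.7 CPM after IgG and 81.8, 78.98 and 81.8 CPM after BSA, without overlap, and rose by 0.54 (SE 0.089, edgeR adjusted p = 0.00592). The uncharacterised gene 9430020K01Rik was 112, 100.5 and 109 CPM after IgG and 78.98, 78.8 and 86.1 CPM after BSA and rose by 0.40. Its IgG values were all above all BSA values, and the BSA values of numbers 10 and 11 were nearly equal.

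No interferon response gene passed the test. Of 44 listed interferon response genes 33 were tested, 19 higher and 14 lower, with a median of 0.057. By edgeR 0 passed in either fit. In the fit of 18 libraries 1 had an unadjusted p under 0.05, beside 5.87% of all genes. Trim25, the ligase that activates RIG-I, was 94.4, 92.3 and 84.97 CPM after IgG and 72.8, 78.1 and 83.7 CPM after BSA. IgG number 14 was barely above the highest BSA value, and the difference was 0.21 (SE 0.077, edgeR unadjusted p = 0.0130, adjusted p = 0.741). Ifi35 was 12.6, 11.6 and 11.5 CPM after IgG and 15.4, 12.9 and 13.9 CPM after BSA, a difference of -0.24. Mx1, Oas2, Rsad2 and Cxcl10, strongly induced in an interferon response, were all under the filter.

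The 18 tested genes of cytosolic DNA and RNA sensing, which include sensors and other members of the route, had 13 higher and 5 lower with a median of 0.059. Of these genes 0 passed in either fit by edgeR (3 had an unadjusted p under 0.05, beside 5.87% of all genes). Irf3, the factor in this list that such sensing activates, was 35.2, 29.8 and 33.3 CPM after IgG and 43.2, 33.1 and 40.2 CPM after BSA, with 1 BSA value inside the IgG range. Of 30 tested NF-kB targets 11 were higher and 19 lower (median -0.084), and in the paired fit 1 rose and 3 fell (3.33% and 10.0%, beside 2.64% and 4.62% of all genes). Rel, a subunit of NF-kB itself, rose: it was 5.81, 4.11 and 4.98 CPM after IgG and 2.31, 3.08 and 3.35 CPM after BSA, without overlap (0.77 within pairs, SE 0.18, edgeR adjusted p = 0.0279). Ccl2, a monocyte attractant, fell: it was 40.01, 39.4 and 35.1 CPM after IgG and 46.99, 50.1 and 42.6 CPM after BSA (-0.28, SE 0.072, edgeR adjusted p = 0.0347). The other falls were Gadd45b and Zc3h12a, at -0.35 and -0.39.

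Among proteasome subunits, 29 of 32 were lower with a median of -0.14, and 4 fell in the paired fit (12.5%, beside 4.62% of all genes). Psma7, a ring subunit of the catalytic core, was 163, 148 and 156 CPM after IgG and 208, 189.9 and 173 CPM after BSA, without overlap, and fell by 0.28 (SE 0.071, edgeR adjusted p = 0.0334). Psmb5, the chymotrypsin-like site, fell by 0.50 from 14.03 ± 2.27 to 9.87 ± 0.596 CPM (SD, n = 3 each). Adrm1 and Psmb6 fell by 0.32 and 0.24. Psmd11, the highest member, differed by 0.084 and did not pass. Of 16 antigen presentation genes 12 were lower (median -0.092), and 1, the immunoproteasome subunit Psmb10, fell by 0.51 (6.25%, beside 4.62% of all genes).

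The stress lists differed in how many members passed the paired fit, in which 4.62% of all genes fell. Heat shock genes had 8 higher and 16 lower of 24, with 2 of 23 in the paired fit, Hspe1 and Hspa1b, falling by 0.34 and 0.44 (8.70%). Hspa1a was listed at 0.0929, 0.102 and 0.197 CPM after IgG and 0.392, 0.506 and 0.866 CPM after BSA, a few reads per library, and was not in the paired fit. Of 27 unfolded protein response genes 18 were lower (median -0.037) and 1, the serine synthesis enzyme Phgdh, fell by 0.30 (3.70%). Among 24 oxidative stress genes 5 fell (20.8%), including the metallothioneins Mt1 and Mt2 by 0.41 and 0.42.

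Mt2 was 197 ± 61.3 CPM after IgG and 262 ± 71.3 after BSA (SD, n = 3 each), which overlapped. Membrane repair genes, relevant to cells opened by a pulse, had 13 higher and 12 lower (median 0.00028) and 0 passed. Autophagy genes had 13 higher and 12 lower, and Gabarapl2, an ATG8-family protein, was 7.48, 7.11 and 8.77 CPM after IgG and 9.46, 9.95 and 11.6 CPM after BSA, a paired fall of 0.41 (edgeR adjusted p = 0.0440). Gabarapl2 was the 1 autophagy gene of 25 that passed (4.0%, beside 4.62% of all genes that fell). Immediate early genes had 17 of 25 lower, with Junb and Ier2 falling by 0.72 and 0.55 (8.0%). Ier2 was 16.6, 9.19 and 15.2 CPM after IgG and 20.96, 17.3 and 21.04 CPM after BSA, lowest in IgG number 11.

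For growth and death, 34 cell cycle genes had 12 higher and 22 lower (median -0.071). The replication clamp Pcna was the 1 member that fell in the paired fit (2.94%, beside 4.62% of all genes). It fell by 0.31 from 182 ± 26.3 CPM to 146 ± 16.5 CPM (SD, n = 3 each). The proliferation marker Mki67 was 197, 254 and 219.6 CPM after IgG and 189.8, 251 and 188 CPM after BSA. Of 21 p53 targets 13 were higher (median 0.041), and Bax, a pore-forming death protein, was 70.9, 46.1 and 60.6 CPM after IgG and 94.97, 72.1 and 70.2 CPM after BSA and fell by 0.42. Bax was the 1 p53 target that passed the paired fit (4.76%, near the share of all genes that fell).

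Sterol genes were split, 14 higher and 13 lower. The mevalonate pathway enzymes Mvk and Mvd fell by 0.39 and 0.38, and Acaca, the first enzyme of fatty acid synthesis, rose by 0.24 (edgeR paired fit, adjusted p = 0.04999). These falls and this rise were 7.41% and 3.70% of the list, beside 4.62% and 2.64% of all genes. Acaca was 80.2, 91.2 and 78.4 CPM after IgG and 66.2, 76.2 and 69.8 CPM after BSA, without overlap. Of 26 glycolysis and hypoxia genes 17 were higher (median 0.048), and the oxidase Ero1l was 308, 237 and 265 CPM after IgG and 228, 189 and 222 CPM after BSA and rose by 0.34. Ero1l alone passed in that list (3.85%, beside 2.64% of all genes that rose).

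Matrix genes were the one fibroblast list with several rises. Of 33 tested, 24 were higher and 9 lower (median 0.060), and 4 rose and 1 fell in the paired fit (12.1% and 3.03%, beside 2.64% and 4.62% of all genes). Col12a1, Fn1, Fbn1 and Bgn rose by 0.43, 0.32, 0.26 and 0.25, and none of these 4 passed with the transcript length offset described below. Fbn1, the microfibril protein, was 264, 296 and 273 CPM after IgG and 204, 254 and 242 CPM after BSA, without overlap, and differed by 0.032 with that offset (edgeR adjusted p = 0.830). Fn1 was 4252 ± 1084 CPM against 3391 ± 608 (SD, n = 3 each), which overlapped. The collagen crosslinker Loxl1 fell by 0.24. Contractile and YAP target genes had 7 higher and 16 lower (median -0.096) with 0 passing, and Vcl, a focal adhesion protein, was 841, 719 and 702 CPM after IgG and 591, 679.6 and 625 CPM after BSA.

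**Figure D3:**
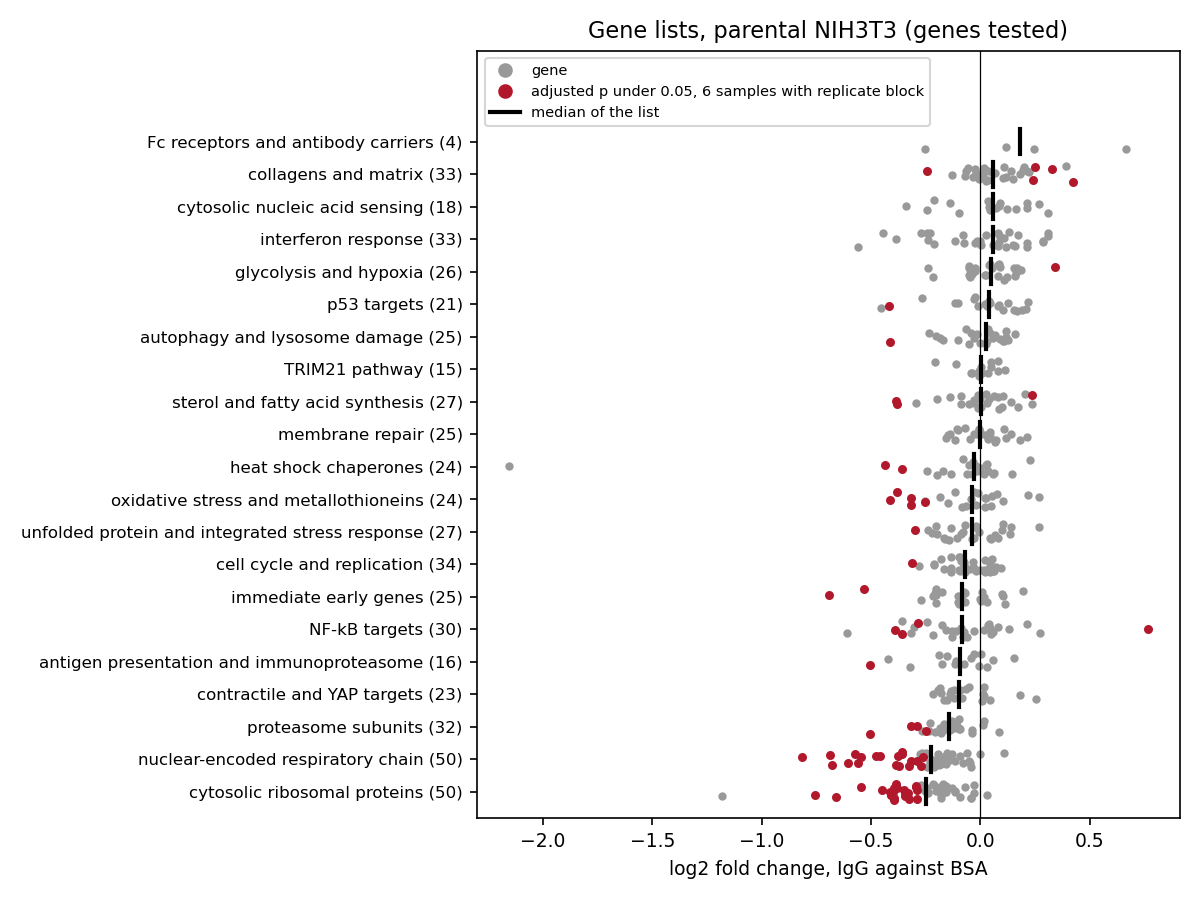
Log2 fold change of IgG over BSA in the fit of 18 libraries (horizontal axis) for the tested members of 21 gene lists (vertical axis), with 1 point per gene and a mark at each list's median. Ribosomal protein and respiratory chain genes lie almost wholly below 0 (49 of 50 each), whereas the Trim21 route, interferon and membrane repair lists straddle 0.

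The sign of the difference followed transcript length. In the quintile of genes with the shortest transcripts (64 to 1965 nt, longest annotated transcript) the median log2 fold change was -0.16 and 82.8% of 2412 genes were lower after IgG. The medians of the next quintiles were -0.061, -0.0014 and 0.053. In the quintile with the longest transcripts (5304 to 123179 nt) the median was 0.16 and 15.1% were lower. Of the 548 genes that fell in the paired fit 353 lay in the shortest quintile, and of the 314 that rose 271 lay in the longest.

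Each pair showed the gradient. The shortest quintile had medians of -0.22, -0.16 and -0.11 in pairs 10, 11 and 14, and the longest quintile 0.25, 0.11 and 0.094. Called lower genes had a median transcript of 1575 nt and 56.0% GC, called higher genes 7939 nt and 46.0%, and all genes 3424 nt and 49.5%. Across 12058 genes, Spearman's rho between the difference and length was 0.553, and with GC content -0.381, given as a description because genes share the 6 libraries.

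**Figure D4:**
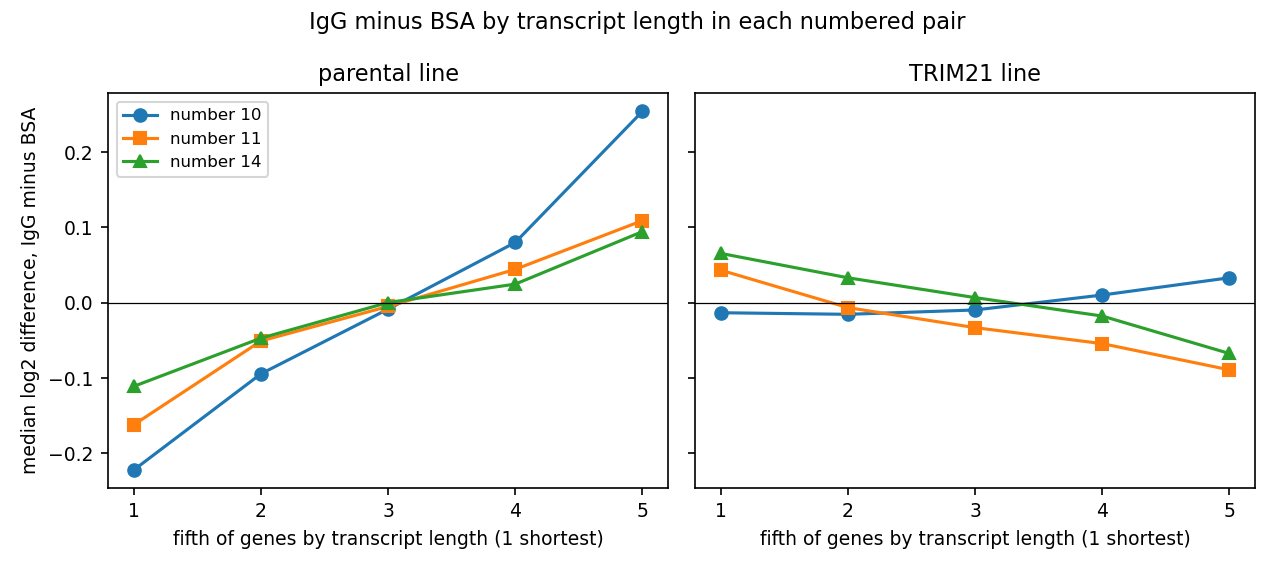
Median log2 fold change of IgG over BSA (vertical axis) in quintiles of transcript length from shortest to longest (horizontal axis), for each numbered pair of the parental line and of the TRIM21 line. The 3 parental pairs climb from between -0.22 and -0.11 to between 0.094 and 0.25, and the TRIM21 pairs stay between -0.089 and 0.066.

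With an offset that removes each library's trend over transcript length, the paired fit gave 117 genes, 13 higher and 104 lower, of which 102 were among the 862 (11.8% of those and 87.2% of the 117). The ribosomal median became -0.089 with 6 of 50 falling, the respiratory median -0.059 with 6 of 50, and the proteasome median -0.037 with 0. Among all genes in that fit 104 of 11872 fell. Rpl36, Uqcrq, Uqcr11, Rplp1 and Rplp2 still passed in it, with log2 fold changes of -0.73, -0.67, -0.49, -0.50 and -0.49 (edgeR adjusted p = 0.0126, 0.00443, 0.0126, 0.0296 and 0.0296). Ndufa2 and Cox7c passed as well. Erdr1, also among the 8 lower leaders of the paired fit, passed at -1.32, as without the offset. Its symbol had no annotated length, so the offset removed no trend from it. Of the 8 higher leaders of the paired fit Atf7, Elk4, Zfp369 and Zbed6 passed, Atf7 and Elk4 at 0.68 and 0.83. D830031N03Rik also passed, at 0.84 with and without the offset, but it too had no annotated length. The other 3 did not: Tenm4 went from 0.54 to 0.31, 9430020K01Rik from 0.40 to 0.25 and Peg3 from 0.52 to 0.33 (edgeR adjusted p = 0.0570, 0.0622 and 0.0914).

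Beyond the ribosomal and respiratory lists, 3 list members passed with the length offset, 1 rise each among glycolysis and membrane repair genes and 1 fall among immediate early genes. The rise among glycolysis and hypoxia genes was Ero1l, at 0.30 (edgeR adjusted p = 0.0486). Rel, Ccl2, Psma7, Gabarapl2 and Acaca no longer passed, at 0.61, -0.095, -0.15, -0.29 and 0.039 (edgeR adjusted p = 0.124, 0.550, 0.268, 0.222 and 0.802). The calls of the NF-kB, proteasome, oxidative stress, heat shock and matrix lists were all lost. With offsets for both length and GC content 60 genes passed.

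The PBS libraries also differed in this gradient. Taking the median deviation of the longest quintile minus that of the shortest, measured against the mean of all 18 libraries, the IgG libraries stood at 0.099, 0.17 and 0.12 and the BSA libraries at -0.37, -0.097 and -0.078. BSA number 10 was the most extreme library on the short-transcript side. The PBS libraries spanned 0.014, -0.21 and 0.21, from within the BSA range to above every IgG library. The share of reads outside genes, given above, was also lower in BSA number 10 than in the other 5. The part of transcript length and of reads outside genes in the differences was not tested.

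**Figure D5:**
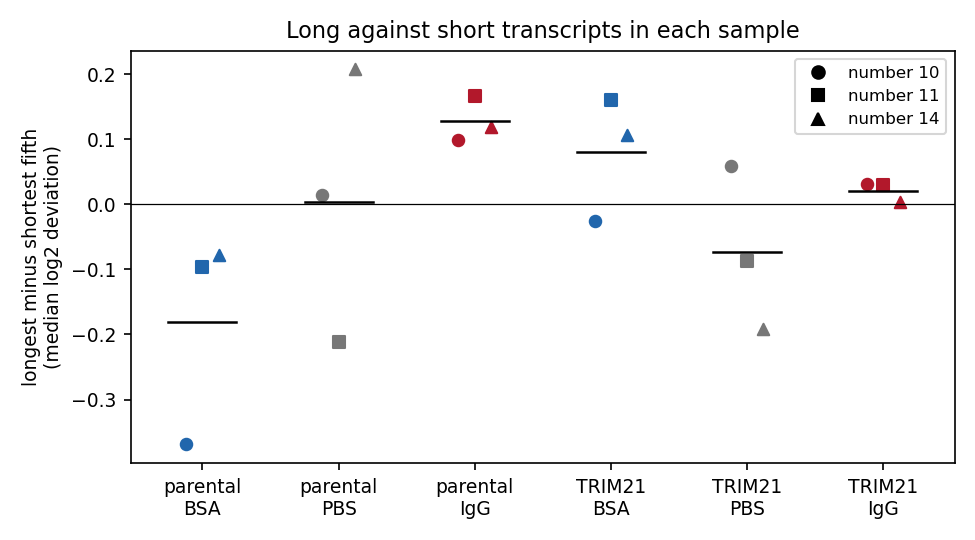
Length tilt of each of the 18 libraries (vertical axis, log2 units, longest quintile minus shortest quintile of transcripts) by cell line and treatment (horizontal axis), with the shape of a point giving its number. The parental IgG libraries (0.099 to 0.17) lie above the parental BSA libraries (-0.37 to -0.078), and the parental PBS libraries (-0.21 to 0.21) cover both.

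The same comparison in the line with mCherry-mTRIM21 gave no called gene. There IgG against BSA gave 0 genes by edgeR in the fit of 18 libraries (45 at an unadjusted p under 0.05) and 0 in its own paired fit (252). Rplp1 was 1782, 1219 and 767 CPM after IgG and 1121, 528 and 775 after BSA in that line, and Cox17 was 13.5, 11.8 and 11.8 against 11.8, 9.97 and 10.2. The ribosomal list had 42 of 50 genes higher and a median of 0.12, opposite in sign to the parental line.

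The difference between the lines was tested as an interaction. In the fit of 18 libraries it gave 0 of 12140 genes (0%), with 482 at an unadjusted p under 0.05 (edgeR; DESeq2 and limma-voom also gave 0). A fit of the 12 IgG and BSA libraries with pairing within each line was added after seeing the data. It gave an interaction for 183 of 12069 genes (1.52%), 11 with a higher and 172 with a lower log2 fold change in the parental line. In this fit IgG against BSA in the parental line gave 172 genes, all among the 862 (20.0% of those). Cox17 had an interaction of -0.99 (SE 0.16, edgeR adjusted p = 0.00973) and Rplp1 of -1.42. Trim21 had 0.078 (SE 0.16, edgeR adjusted p = 0.836).

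Promoter matches were counted over the called genes and the lists, as a description with no test. The ETS core CCGGAAG was found, on either strand in the 250 bases before the start, in 1312 of 9132 tested genes with a RefSeq window (14.4%), in 99 of 431 genes that fell and in 31 of 242 that rose (12.8%). It was in 11 of 38 ribosomal (28.9%), 8 of 26 proteasome (30.8%) and 5 of 38 respiratory promoters (13.2%). The interferon response element core (GAAA, any 2 bases, GAAA) was in 9 of 25 interferon response promoters (36.0%) against 2.41% of all. It was also in 15.8% of ribosomal, 7.69% of proteasome and 5.26% of respiratory promoters, and in 2.32% of genes that fell and 1.24% of those that rose. The GC box GGGCGG was in 60.6% of all windows, 63.8% of those that fell and 67.4% of those that rose.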

How the data were processed

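RNA of 18 NIH3T3 libraries was sequenced after polyA enrichment with a strand-specific kit, per the labels' protocols. Each library had 1 deposited table of raw read counts by gene symbol, and the submitters' processing notes name bcl2fastq 2.19.1.403, FastQC 0.11.5, STAR 2.5.1b, HTSeq 0.6.0, DESeq2 1.6.3 and the mm10 build, without roles. Whether counting used strand is not given in the sources used here. Lines for reads outside genes were kept out of library sizes. They held 13.1% to 17.3% of the reads that fell in a gene, outside genes or ambiguously between genes in the 6 libraries. Reads with several alignments were left out of that share and of library sizes. They made up 37.7% to 40.6% of all counts in these libraries, most in BSA number 10.

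The count analysis used R 4.3.3 with edgeR 4.0.16. filterByExpr (minimum count 10, minimum total 15) kept 12140 of 24062 genes, TMM factors were 0.977 to 1.03, and edgeR's quasi-likelihood test used all 18 libraries with a separate mean for each of 6 groups, with Benjamini-Hochberg adjustment and a threshold of 0.05. Intervals are at 95%. Alternatives were DESeq2 size factors, no filter, 10 counts in every library, the replicate number as a block, only the 6 libraries with and without that block, a lowess offset on transcript GC content, the Wald test of DESeq2 1.42.0, voom in limma 3.58.1 and leaving out each of the 6 parental IgG and BSA libraries. Offsets on transcript length, the 9 parental libraries, 12 libraries of both lines and variants of the paired fit were added after seeing the data.

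The numbers 10, 11 and 14 in the titles were taken to pair the libraries because same-numbered IgG and BSA libraries correlated at 0.232, 0.288 and 0.397. Pairs of libraries of 1 group differed by 18.4 to 42.9 times the chi-square that counting noise gives, so none looked like a repeat deposit. Named genes were the Trim21 route, the 8 higher and 8 lower genes with the smallest p (mean of at least 1 CPM, no overlap, 3 pairs one way), and the member of each list with the smallest p in each direction. The 8 and 8 of the paired fit, and other members named after they passed it or to give a list's range, were chosen after their values were seen. Members and lists were chosen with earlier results of these data known. Symbols were matched to the GENCODE annotation of GRCm38, 22758 directly, 935 by an older symbol and 369 not. The scripts were also run on simulated counts with known changes and with replicate effects drawn separately for each gene. Those counts held no trend over transcript length or GC content, so they cannot show how the paired fit behaves with one.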

Additional observations from a re-analysis of the deposited data

Results flagged for a closer look

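The comparison of the lines was singled out because the test of the difference itself passed in a fit added after seeing the data. That fit used the 12 IgG and BSA libraries with pairing within each line. In it the log2 fold change of IgG over BSA differed between the parental and the mCherry-mTRIM21 line for 183 genes (edgeR, adjusted p under 0.05). The fit of 18 libraries gave 0, with or without the replicate block. The genes listed next had been chosen by small p of the parental difference, which is part of this interaction. Their values are therefore no independent support.

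Among the genes named in the report, the difference (parental minus TRIM21 line, log2) was positive for Nhlrc3 at 1.02, Zfp369 at 0.968, Elk4 at 0.928, Zbed6 at 0.923 and Atf7 at 0.89. It was negative for ribosomal proteins, at -1.62 for Rpl36, -1.42 for Rplp1 and -1.24 for Rplp2. It was also negative for respiratory chain and assembly proteins, at -1.16 for Uqcrq, -1.03 for Uqcr11, -0.994 for Cox17, -0.904 for Ndufa2, -0.798 for Cox14, -0.768 for Cox7c, -0.763 for Coa6 and -0.584 for Ndufc2. The others were Erdr1 at -2.19, 2700094K13Rik at -0.715 and the mevalonate enzyme Mvk at -0.616. In the TRIM21 line alone 0 genes passed in the same fit, with 406 at an unadjusted p under 0.05 (edgeR).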

How the results depend on the processing

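With all 18 libraries the count of genes past the adjusted threshold was 0 in every alternative run, leaving out each of the 6 IgG and BSA libraries of the parental line included. With only the 6 libraries it was 0 without the replicate block and 862 with it. Among variants of that paired fit chosen after seeing the data, it was 941 by limma-voom and 495 by DESeq2, 367 with a GC offset, 117 with a length offset, 60 with both, 74, 211 and 1414 without pairs 14, 10 and 11, and 172 with the 12 libraries of both lines, a fit in which the interaction gave 183.

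The count at an unadjusted p under 0.05 (713) became 1175 with the replicate block, 1540 with the block and GC offset, 301 with the length offset, and 161 to 913 leaving out 1 library. With only the 6 libraries it was 1386, and 3070 with the block. For the variants of the paired fit it was 3087 by limma-voom, 1942 by DESeq2, 2614 with the GC offset, 1932 with the length offset, 1704 with both, 2452, 1731 and 2992 without those pairs, and 2485 with 12 libraries. The cause was not tested. The interaction could not be fitted with the 6 libraries of 1 line.

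Of 84 named genes, 16 changed sign in some alternative, and 0 of those had passed the adjusted threshold in either fit. The length offset moved 6 of 21 list medians by more than the spread. Depth limits genes under 1 CPM, where 33.2% of intervals lay within 2-fold.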

Other observations

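Small nucleolar RNAs had fitted differences of both signs. In the fit of 18 libraries Snora52 was 0.82 higher on the log2 scale after IgG while its host Rplp2 was 0.66 lower, and Snora81 was 0.95 higher, whereas Snord96a differed by -0.63. None of these passed the adjusted threshold there (edgeR adjusted p = 0.741 for each). In the paired fit Snora81 passed at 0.95 (edgeR adjusted p = 0.0254), Snord96a at -0.62 (adjusted p = 0.0396) and Rplp2 at -0.69, and Snora52 did not (adjusted p = 0.0631).

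The TRIM21 line had its own spread in the same genes. Rpl36 was 286, 200.4 and 114 CPM after IgG and 190.4, 77.99 and 123 CPM after BSA in that line, so number 14 of both groups lay near the parental IgG libraries numbered 10 and 14.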
